A study of Mus musculus with 9 samples.

Results

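DNA replication machinery is described here through 43 genes that were chosen by symbol: the MCM helicase, the factors that load and activate it, the replicative polymerases and primase, the sliding clamp and its loaders, the single-strand binding protein, the enzymes that join Okazaki fragments, the enzymes that supply deoxynucleotides, and the chromatin assembly factor CAF-1. Of these, 42 were read, out of 18193 genes on the array. Chaf1a, the large subunit of CAF-1, was not measured here. The platform annotation gave the 42 genes 92 probe sets, and for each gene the probe set with the highest average on the 9 arrays was used.

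Expression was measured in 3 kinds of mouse cell with 3 arrays each. Very small embryonic-like cells (VSEL) and haematopoietic stem cells (HSC) were sorted from marrow of 4-week-old C57BL/6 mice as Sca-1-positive cells that lack lineage markers. VSEL were the CD45-negative and HSC the CD45-positive part of that gate, so the HSC group is defined by 3 surface criteria and is not a purified stem cell fraction. The third kind is ESC-D3 (called ESC below), an embryonic stem cell line of strain 129S2/SvPas, kept on 0.1% gelatin with 10 ng/ml leukaemia inhibitory factor. Each array reports a cDNA library made from 20 cells, and the labels do not say whether the libraries of a group stem from different animals or dishes. The p-values therefore cover library-to-library spread, which could be purely technical. All values are log2 RMA values, and the lower quartile of all genes, used here as a mark of background, lay between 4.49 and 4.80 on the 9 arrays.

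Before DNA is copied, the origin recognition complex, Cdc6 and Cdt1 load rings of MCM proteins onto origins, which is called licensing. Cdc45 and the GINS complex then join the ring to make the active helicase, primase and polymerase alpha start each strand, and polymerases delta and epsilon extend it while held by the PCNA clamp. Most of these genes are transcribed around the start of S phase under E2F transcription factors. Their RNA is therefore commonly read as a mark of cycling cells. Long-term haematopoietic stem cells are known for being mostly quiescent, while embryonic stem cells cycle fast. The HSC group here is not a purified fraction of such quiescent cells. Cd3g, from the list of T and NK markers below, was at 12.55, 12.91 and 13.01 in HSC.

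VSEL arrays 2 and 3 correlated at 0.989 across probe sets, against 0.831 to 0.957 for the other pairs within a group, and a change of over 4-fold was seen for 1 probe set, against 1565 to 4232 in those pairs. They were therefore averaged and counted as 1 library, VSEL 2+3, which leaves 2 libraries for VSEL, 3 for HSC and 3 for ESC in every mean ± SD and test below. Ptprc, which encodes CD45, was at 3.42 ± 0.24 in VSEL and 13.54 ± 0.14 in HSC, and Pou5f1, a factor of pluripotent cells, was at 10.01 ± 0.29 in VSEL, 3.51 ± 0.39 in HSC and 13.02 ± 0.16 in ESC. Kit, a receptor of stem and progenitor cells, was at 7.01 ± 0.49 in VSEL, 8.34 ± 0.70 in HSC and 10.04 ± 0.50 in ESC. In such pooled libraries, fewer cells of a type and less RNA per cell cannot be told apart.

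Replication genes were lowest in HSC, and their medians in VSEL lay on either side of those in ESC. The median of the 42 genes was 11.07 and 10.38 in the VSEL libraries, 8.79 to 8.97 in HSC, with 10.80 to 10.90 in ESC, while the median of all genes was 6.03 to 6.26 in every library. HSC had the lowest mean for 38 of the 42 genes, VSEL for 3 and ESC for 1. Genes with the highest mean in ESC numbered 27, against 14 in VSEL and 1 in HSC.

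Against HSC, 14 of the 42 genes were called higher in VSEL (33.3%, where 8.01% of all genes were) and none was called lower, where 9.18% of all genes were. A call is an adjusted p under 0.05 from limma with Benjamini-Hochberg adjustment over all genes. At an unadjusted p under 0.05, 24 were higher and 2 lower. The median log2 difference was 1.47 for these genes and 0.22 for all genes. Both VSEL libraries lay above all HSC libraries for 24 of the 42 genes, where 37.8% of all genes did, and below for 2 genes, where 17.3% did. The number called higher was 20 with VSEL 1 as the only VSEL library and 17 with VSEL 2+3 as the only one. It was 9 without HSC 1, and 8 in a fit on VSEL and HSC alone. Taking the mean of all probe sets of a gene in place of 1 lowered several of the differences given below: Atad5 to 3.74, Orc1 to 2.80, Rrm2 to 2.47, Mcm10 to 1.80, Gins1 to 1.80, Cdc45 to 1.63 and Rrm1 to 1.17, all still called, and Pold1 to 0.58, which was not (adjusted p = 0.404).

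Against ESC, VSEL showed no common shift. Of the 42 genes, 4 were called higher (Atad5, Cdc45, Prim1 and Rrm1), where 6.38% of all genes were, and 4 lower (Rfc1, Gins4, Rpa1 and Mcm3), where 10.5% were. Both VSEL libraries lay above all ESC libraries for 9 genes, where 33.0% of all genes did, and below for 9, where 22.6% did. The median log2 difference was -0.35, against 0.11 for all genes, and it turned to 0.33 after cyclic loess scaling. Under that scaling 13 of the 42 differences changed sign, none of them called, and 8 genes were called higher and 2 lower. The 4 higher calls became 2 without VSEL 2+3, without ESC 2 or without ESC 3, and the 4 lower calls became 12 without VSEL 1. Called differences from ESC that shrank but kept their call were Rfc1, at -1.49 after cyclic loess and -1.32 as the mean of its probe sets, Rpa1, at -1.27 after cyclic loess, and, as means of probe sets, Atad5 at 1.76 and Cdc45 at 1.26.

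HSC fell below ESC for 20 of the 42 genes (47.6%, where 9.93% of all genes did) and exceeded it for none, where 6.99% of all genes did. At an unadjusted p under 0.05 limma gave 27 lower and 0 higher. Every HSC library lay below every ESC library for 37 of the 42 genes, where 21.5% of all genes did so. These 3 comparisons share libraries, so their counts are not independent of one another. A moderated F test over the 3 cell types called 24 of the 42 genes, where it called 25.5% of all genes.

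**Figure D1:**
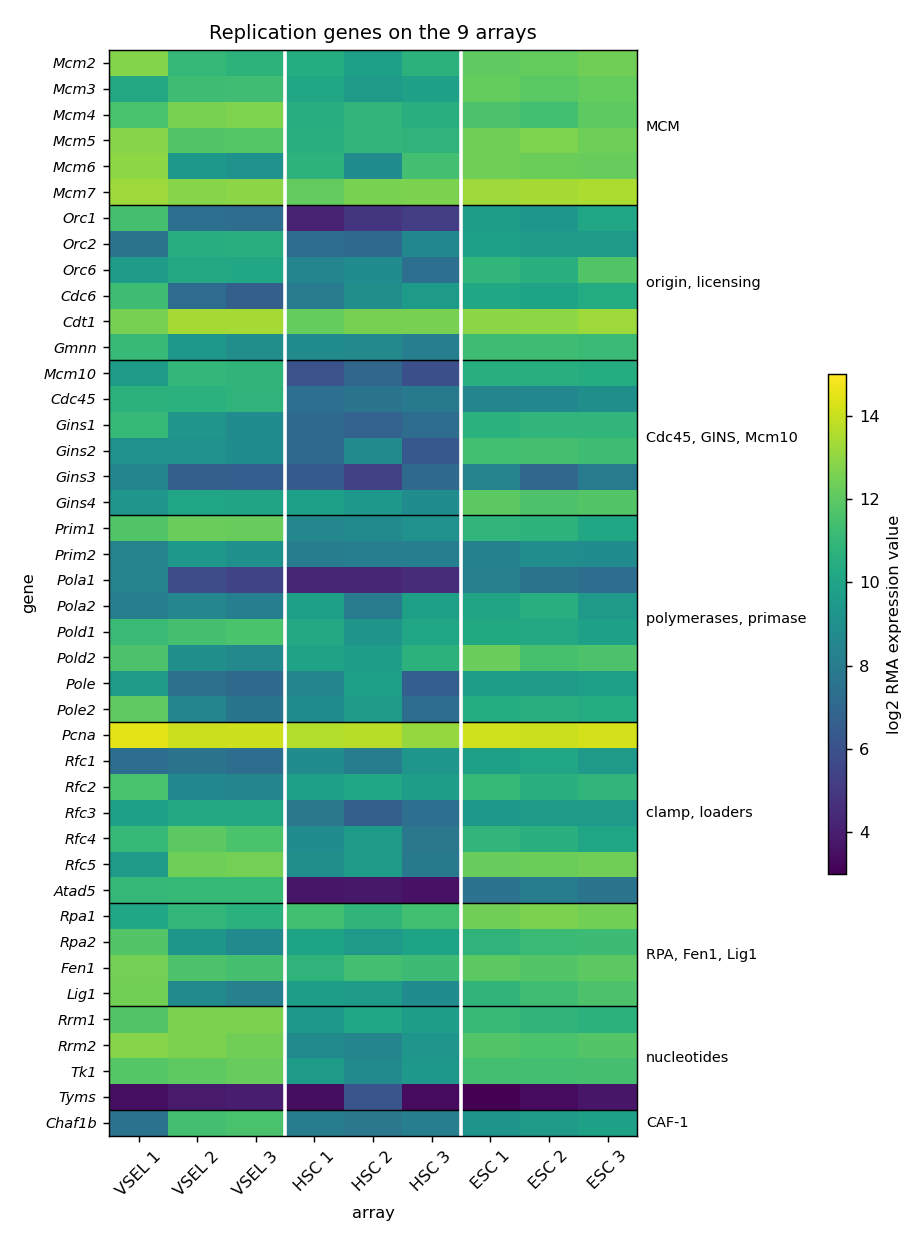
Log2 RMA value of each of the 42 replication genes (rows, grouped by complex) on each of the 9 arrays (columns), with colour from dark (low) to bright (high). The 3 HSC columns are the darkest for most genes, and VSEL 1 differs from VSEL 2 and 3 in many rows.

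**Figure D2:**
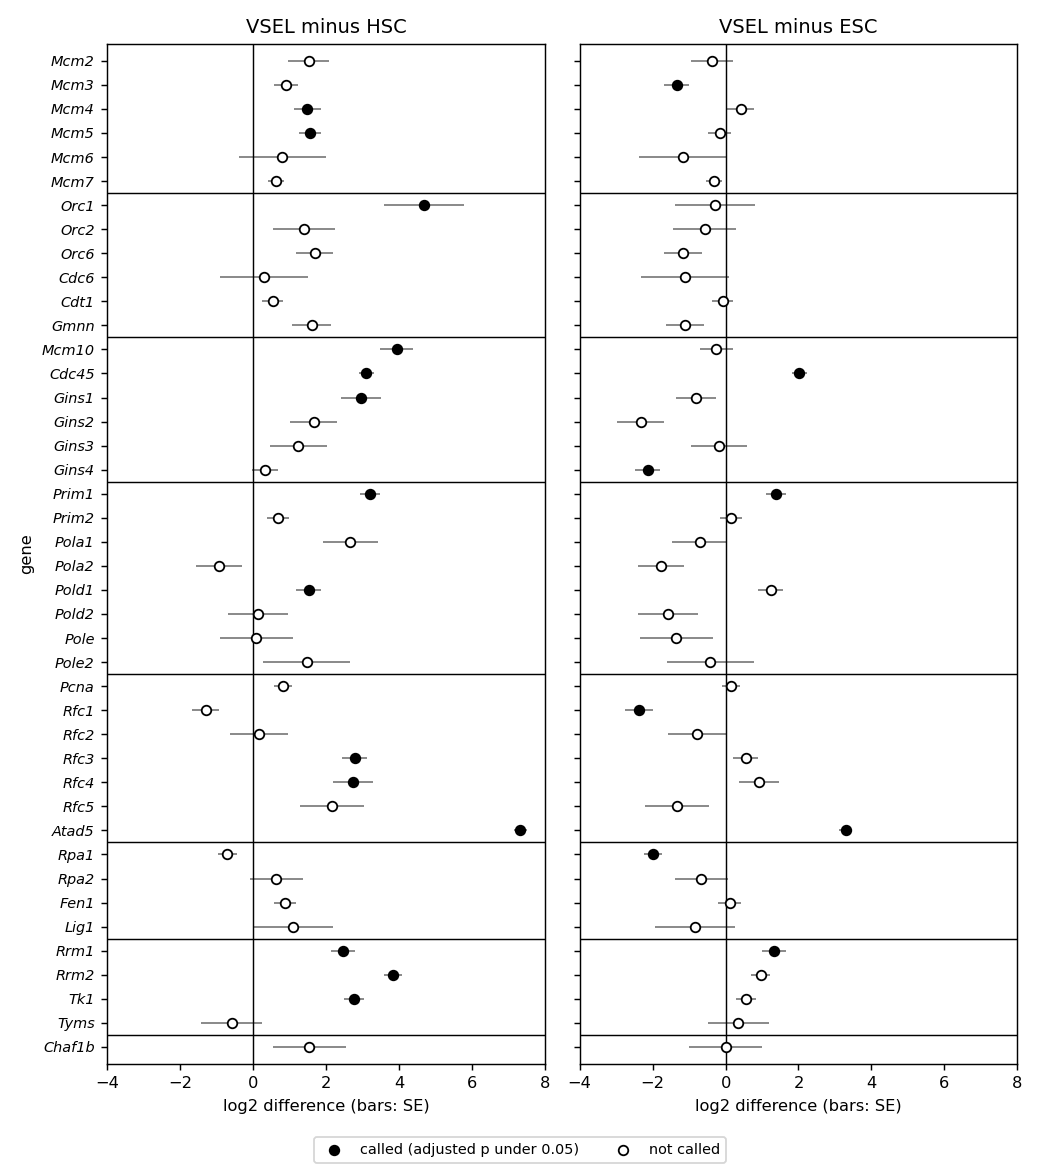
Log2 difference of VSEL from HSC (left) and from ESC (right) for each replication gene, with bars of 1 SE and filled points for an adjusted p under 0.05. The 14 filled points on the left all lie above 0, and the 8 on the right are split between both sides.

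Promoters of these genes were searched for E2F sites and other cell cycle motifs in the RefSeq table of build GRCm38.p6, which covers 250 bases before to 50 after each start and held 35 of the 43 genes. An E2F-type match was the run TTGGCGC on either strand, and likewise the form TTCCCGC, the form TTCGCGC or the form TTGCCGC. Such a match was found for 23 of 35 genes (65.7%), against 16.0% of the 14452 measured genes in the table, and for 13 of 24 (54.2%) other fork and origin factors. For 23 mitosis genes it was 13.0% and for 18 ribosomal protein genes 0 of 18. The NF-Y box, CCAAT on either strand, was also found for 23 of 35 genes (65.7%, against 42.0% of measured genes). The CHR element, TTTGAA on either strand, was found for 5 of 35 (14.3%, against 15.7%) and for 17 of 23 mitosis genes. Median GC content was 57.3% in the promoters of the replication genes and 58.3% in those of measured genes. Of the 14 genes called higher in VSEL than in HSC, 12 had a promoter in the table and 9 of these held an E2F-type match, against 13 of 22 measured genes not called. The stretches below are 100 bases each, upstream of the start, from 6 genes called higher in VSEL than in HSC whose match lies there, and from Cdc45, which has none in its window. Capitals mark the E2F-type match. The CCAAT letters share bases with the match in Prim1.
Prim1, chr10:128015115-128015214, plus strand: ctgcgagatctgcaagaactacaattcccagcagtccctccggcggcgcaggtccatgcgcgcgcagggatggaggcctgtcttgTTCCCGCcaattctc
Rrm1, chr7:102441595-102441694, plus strand: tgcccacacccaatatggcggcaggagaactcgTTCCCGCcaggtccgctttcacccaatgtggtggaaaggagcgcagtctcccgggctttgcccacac
Rrm2, chr12:24708004-24708103, plus strand: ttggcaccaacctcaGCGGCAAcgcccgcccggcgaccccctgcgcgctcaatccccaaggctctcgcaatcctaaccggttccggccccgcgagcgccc
Orc1, chr4:108579354-108579453, plus strand: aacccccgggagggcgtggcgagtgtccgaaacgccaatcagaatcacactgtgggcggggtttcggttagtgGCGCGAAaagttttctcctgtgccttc
Mcm5, chr8:75109325-75109424, plus strand: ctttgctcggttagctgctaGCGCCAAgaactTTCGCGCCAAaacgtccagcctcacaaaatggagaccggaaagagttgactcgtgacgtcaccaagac
Rfc3, chr5:151651209-151651308, minus strand: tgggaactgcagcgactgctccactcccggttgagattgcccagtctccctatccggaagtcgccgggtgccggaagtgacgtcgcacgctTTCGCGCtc
Cdc45, chr16:18811973-18812072, minus strand: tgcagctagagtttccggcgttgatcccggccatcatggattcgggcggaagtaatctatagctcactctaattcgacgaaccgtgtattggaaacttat

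In Mcm5 the longer run of capitals holds overlapping matches of both strands, and the form nearest the start in Prim1 and Rrm1 is the same, TTCCCGC. The match of Atad5 lies after the start, at bases 23 to 29, and so do those of Pold1, Rfc4, Lig1 and Pole2. A match describes these letters only and shows neither binding nor regulation.

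**Figure D3:**
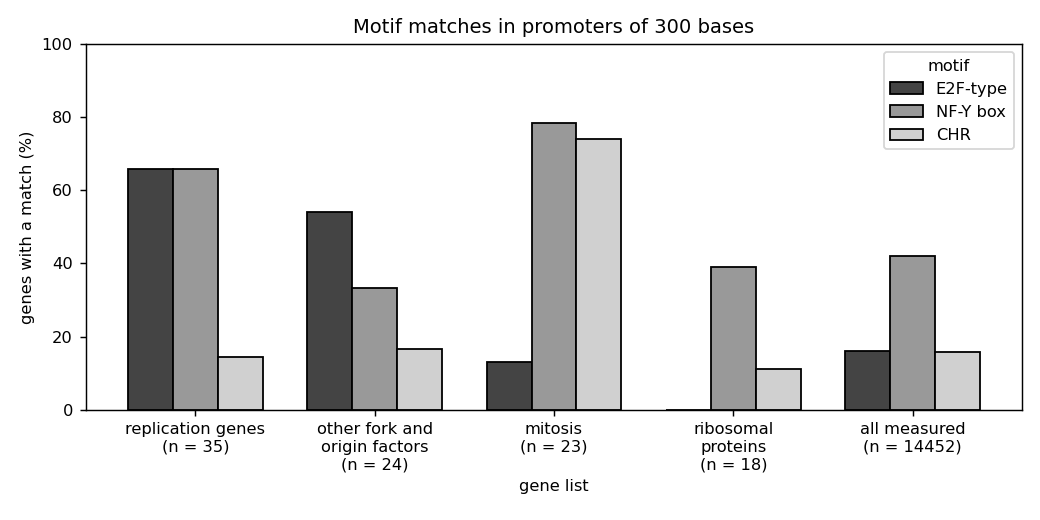
Share of genes (%) whose RefSeq promoter of 300 bases holds an E2F-type match, an NF-Y box or a CHR element, by gene list, with the number of genes below each. The E2F-type bar stands at 65.7% for replication genes, 54.2% for the other fork and origin factors and 16.0% for all measured genes, and the CHR bar is tall for the mitosis list alone.

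The counts for single complexes are small and are read against the all-gene shares of 8.01% higher in VSEL than in HSC and 9.93% lower in HSC than in ESC. Among the genes of origin recognition and licensing, 1 of 6 was called higher in VSEL than in HSC, which is close to that background, and limma called none between VSEL and ESC. Orc1, the largest subunit of the origin recognition complex and the one whose promoter is printed above, was at 11.44 and 7.33 in VSEL 1 and VSEL 2+3, at 4.13, 4.79 and 5.16 in HSC, and at 9.70, 9.29 and 10.08 in ESC. All VSEL and ESC values lay above all HSC values, which sit near background, but the VSEL libraries were far apart. Orc1 differed by 4.69 between VSEL and HSC (SE 1.1; limma adjusted p = 0.0361), or by 2.64 without VSEL 1 and 6.75 without VSEL 2+3, and that call ended without any single HSC or ESC library (adjusted p of 0.0622 to 0.0982). It fell by 5.0 in HSC relative to ESC (adjusted p = 0.0174). This second call ended without HSC 1, HSC 2 or any ESC library (adjusted p of 0.0505 to 0.0634). The other probe set of Orc1 had means of 6.97 in VSEL, 6.06 in HSC and 6.25 in ESC. There VSEL exceeded HSC by 0.91 and ESC by 0.72 (limma adjusted p = 0.0128 and 0.0262 in a fit over all probe sets). HSC against ESC gave -0.19 in it (adjusted p = 0.455). Orc6, another subunit, was at 9.59 and 10.19 in VSEL, 8.41, 8.79 and 7.40 in HSC and 10.89, 10.58 and 11.73 in ESC, so the 3 groups did not overlap. HSC fell below ESC for Orc6 by 2.87 (SE 0.46, limma adjusted p = 0.00756). Orc2 was at 7.61 and 10.51 in VSEL, 7.15 to 8.59 in HSC, with 9.49 to 9.75 in ESC. In that probe set it was called in no comparison, with -1.96 for HSC against ESC (limma adjusted p = 0.161). Its other probe sets gave -2.05 and -2.31 there (adjusted p = 0.0441 and 0.0813 in a fit over all probe sets).

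Cdc6, an ATPase that helps load the MCM ring, was at 11.26 in VSEL 1 and 6.91 in VSEL 2+3, against 7.94, 8.93 and 9.52 in HSC and 10.21, 9.97 and 10.39 in ESC. VSEL 1 was thus above and VSEL 2+3 below all other libraries, and Cdc6 was called in no comparison. Cdt1, the partner of Cdc6 in loading, was at 12.52 and 13.37 in VSEL, 12.18 to 12.55 in HSC, with 12.90 to 13.24 in ESC, with no call in any comparison. Gmnn encodes geminin, the inhibitor of Cdt1 that blocks a second round of licensing. Its values were 11.08 and 9.17 in VSEL, 8.78, 8.63 and 8.17 in HSC and 11.26, 11.25 and 11.20 in ESC. Groups did not overlap, and Gmnn fell by 2.71 in HSC relative to ESC (SE 0.47, limma adjusted p = 0.0104), while VSEL and HSC differed by 1.60 (adjusted p = 0.0847).

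The MCM helicase ring has 6 different subunits, and all 6 had higher means in VSEL and in ESC than in HSC. Between VSEL and HSC, 2 were called higher, and between HSC and ESC 3 were lower. Mcm5 was at 12.83 and 11.81 in VSEL, 10.54, 10.91 and 10.82 in HSC and 12.41, 12.68 and 12.36 in ESC. VSEL and HSC did not overlap, with a difference of 1.56 (SE 0.31, limma adjusted p = 0.0227). Without HSC 1 or HSC 3 the adjusted p rose to 0.0561 to 0.0664. Mcm5 fell by 1.72 in HSC relative to ESC (SE 0.28, adjusted p = 0.00808).

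Mcm4 was at 11.56 and 12.64 in VSEL, 10.46, 10.90 and 10.50 in HSC and 11.67, 11.35 and 12.04 in ESC, with VSEL above HSC by 1.48 (SE 0.37, limma adjusted p = 0.0412). That call ended without VSEL 2+3 or any single HSC or ESC library (adjusted p of 0.0572 to 0.106). Mcm3 was at 10.22 and 11.30 in VSEL, 10.15, 9.55 and 9.87 in HSC and 12.18, 11.95 and 12.17 in ESC. Here VSEL lay between the other groups, and Mcm3 fell by 1.34 in VSEL relative to ESC (SE 0.34, adjusted p = 0.0446). HSC differed from ESC by -2.24 (SE 0.31, adjusted p = 0.00384). The call of VSEL against ESC ended after cyclic loess (-0.58, adjusted p = 0.32) and without VSEL 1 or any HSC or ESC library (adjusted p of 0.0576 to 0.112). The other probe sets of Mcm3 gave -1.11, -0.99, -1.82 and 0.77 there. In a fit over all probe sets, limma gave these adjusted p of 0.0635, 0.09, 0.0292 and 0.0651. For VSEL against HSC the same probe sets gave 1.32, 0.92, 1.16 and 1.11 (adjusted p = 0.0396, 0.105, 0.0921 and 0.024 in that fit). Mcm7 was at 13.26 and 12.87 in VSEL, 12.11, 12.58 and 12.62 in HSC and 13.25, 13.38 and 13.50 in ESC. It fell by 0.94 in HSC relative to ESC (limma adjusted p = 0.0219). That adjusted p was 0.0516 to 0.0747 without any 1 ESC library and 0.214 after cyclic loess. For VSEL against HSC the probe set used gave 0.63 (adjusted p = 0.1). The other probe sets of Mcm7 gave 0.73, 0.9 and 1.13 (adjusted p = 0.0363, 0.0325 and 0.0212 in a fit over all probe sets). For HSC against ESC they gave -1.4, -1.33 and -1.51 (adjusted p = 0.00154, 0.00389 and 0.00326 in that fit).

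Mcm2 and Mcm6 were called in no comparison in the probe sets used, and for both the VSEL libraries lay apart. Mcm2 was at 12.79 and 10.86 in VSEL, 10.44, 9.79 and 10.70 in HSC and 12.08, 12.18 and 12.38 in ESC. For Mcm2, HSC differed from ESC by -1.9 (limma adjusted p = 0.0502). Its second probe set gave -2.29 there, with a limma adjusted p of 0.0215 in a fit over all probe sets. Mcm6 was at 12.98 and 9.26 in VSEL, 10.76, 8.79 and 11.41 in HSC and 12.38, 12.29 and 12.23 in ESC. For Mcm6, VSEL 1 topped every library while VSEL 2+3 fell within the HSC range.

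The step that turns the loaded ring into a moving helicase held some of the largest differences: 3 of its 6 genes were called higher in VSEL than in HSC, and 5 of 6 were lower in HSC than in ESC. Cdc45, the activating partner of the ring, was at 10.69 and 10.73 in VSEL, 7.39, 7.60 and 7.83 in HSC and 8.48, 8.61 and 8.97 in ESC. The 3 groups were fully separate, with VSEL the highest. Cdc45 was 8.59-fold higher in VSEL than in HSC (log2 difference 3.10, SE 0.21, limma adjusted p = 0.000386) and 4.06-fold higher than in ESC (2.02, SE 0.21, adjusted p = 0.00268). The other probe set of Cdc45 had means of 6.51, 6.36 and 6.02 and was called in no comparison.

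Mcm10, which helps the helicase to start, was at 9.58 and 10.89 in VSEL, 6.05, 6.95 and 5.91 in HSC and 10.52, 10.50 and 10.42 in ESC. VSEL and ESC values lay well above HSC and overlapped each other. Mcm10 was 15.2-fold higher in VSEL than in HSC (3.93, SE 0.46, limma adjusted p = 0.00322), and it fell by 4.18 in HSC relative to ESC (SE 0.41, adjusted p = 0.000909). The difference from HSC was 4.58 without VSEL 1 and 3.28 without VSEL 2+3. The values of Mcm10 in both comparisons rest on a probe set of a kind that can match several transcripts (names ending in _x_at, _s_at or _a_at). Without such probe sets, Mcm10 differed by 1.04 between VSEL and HSC (adjusted p = 0.038) and by -0.66 between HSC and ESC, which was not called (adjusted p = 0.115).

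The 4 GINS subunits, which act as 1 complex, did not behave alike. Gins1 was at 11.03 and 9.01 in VSEL, 7.12, 6.79 and 7.28 in HSC and 10.66, 10.89 and 10.91 in ESC, and was 7.76-fold higher in VSEL than in HSC (2.96, SE 0.55, limma adjusted p = 0.0177). The difference was 1.95 without VSEL 1 and 3.97 without VSEL 2+3, and the call had an adjusted p of 0.0507 without HSC 1. Gins4 was at 9.27 and 10.07 in VSEL, 9.78, 9.42 and 8.85 in HSC and 11.98, 11.64 and 11.79 in ESC. VSEL and HSC overlapped for Gins4, and it fell by 2.14 in VSEL (SE 0.35, adjusted p = 0.0114) and by 2.46 in HSC (SE 0.31, adjusted p = 0.00274) relative to ESC. After cyclic loess the VSEL value was -1.31 (adjusted p = 0.051). Gins2 was at 9.12 and 8.94 in VSEL, 7.12, 8.70 and 6.31 in HSC and 11.37, 11.45 and 11.27 in ESC. It fell by 3.99 in HSC relative to ESC (SE 0.57, adjusted p = 0.00468; log2 difference -4.65 without HSC 2), and VSEL lay 2.33 below ESC without a call (log2 difference -2.33, adjusted p = 0.0534). Gins3 was at 8.52 and 6.61 in VSEL, 5.34 to 7.12 in HSC, with 6.95 to 8.37 in ESC, and all groups overlapped.

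Among polymerases and primase, 2 of 8 were called higher in VSEL than in HSC, and 2 of 8 were lower in HSC than in ESC. Prim1, the catalytic subunit of primase, was at 11.76 and 12.24 in VSEL, 8.57, 8.76 and 9.09 in HSC and 10.90, 10.75 and 10.21 in ESC. All groups were separate, with VSEL highest. Prim1 was 9.16-fold higher in VSEL than in HSC (3.20, SE 0.28, limma adjusted p = 0.00114) and 2.61-fold higher than in ESC (1.38, SE 0.28, adjusted p = 0.0238). The second call ended without VSEL 2+3, ESC 2 or ESC 3 (adjusted p of 0.0512 to 0.0795). Prim2, the large subunit of the same enzyme, was at 8.35 and 9.22 in VSEL, 8.07 to 8.16 in HSC, with 8.26 to 8.87 in ESC. In that probe set it was called nowhere. Another probe set of Prim2 put VSEL above HSC by 0.57 and above ESC by 0.56. Limma gave these adjusted p of 0.0452 and 0.0483 in a fit over all probe sets. The remaining probe set gave 0.67 and -0.03 (adjusted p = 0.19 and 0.958 in that fit).

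Pola1 and Pola2 encode the catalytic and the B subunit of polymerase alpha, which extends the primer. Pola1 was at 8.39 and 5.65 in VSEL, 4.27, 4.29 and 4.53 in HSC and 8.24, 7.62 and 7.33 in ESC, so HSC lay near background and below all other libraries. It fell by 3.37 in HSC relative to ESC (SE 0.67, limma adjusted p = 0.0179), with adjusted p of 0.0521 to 0.0649 without any 1 HSC library, ESC 1 or ESC 2, while VSEL and HSC differed by 2.66 (adjusted p = 0.0581). Pola2 had its lowest mean in VSEL, at 8.13 and 8.38, against 9.79, 7.96 and 9.82 in HSC and 10.02, 10.58 and 9.46 in ESC, and no comparison called it.

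The catalytic subunit of polymerase delta, Pold1, was at 11.20 and 11.53 in VSEL, 10.22, 9.20 and 10.10 in HSC and 10.29, 10.24 and 9.86 in ESC, a difference of 1.52 from HSC (SE 0.34, limma adjusted p = 0.0312). Its other probe set, with a mean of 10.06 over the arrays, gave -0.37 (adjusted p = 0.78), so the direction for Pold1 depends on the probe set. The call also ended without either VSEL library, HSC 3, ESC 1 or ESC 2 (adjusted p of 0.0549 to 0.0952). Pold2, Pole and Pole2 were called in no comparison. Pole2 was at 12.05 in VSEL 1, above every other library, and at 8.04 in VSEL 2+3, within the HSC range of 7.34 to 9.65.

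The clamp and its loaders held the gene with the largest difference. Atad5 encodes the large subunit of an alternative clamp loader that takes PCNA off DNA after replication. It was at 10.99 and 11.05 in VSEL, 3.73, 3.77 and 3.60 in HSC and 7.57, 8.02 and 7.60 in ESC. The 3 groups lay far apart, with HSC below background and the VSEL libraries nearly equal. Atad5 was 159-fold higher in VSEL than in HSC (7.32, SE 0.18, limma adjusted p = 7.85e-06) and 9.76-fold higher than in ESC (3.29, SE 0.18, adjusted p = 0.000489), and it fell by 4.03 in HSC relative to ESC (SE 0.16, adjusted p = 2.09e-05). Since the HSC values lie in the background, the ratio to HSC can be understated. The other probe set of Atad5 was at background in all groups, between 2.84 and 3.07, so the difference rests on 1 probe set.

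Pcna, the clamp itself, was at 14.50 and 14.06 in VSEL, 13.60, 13.69 and 13.08 in HSC and 14.13, 14.04 and 14.23 in ESC. VSEL lay above HSC in every library, but no comparison called it (0.82, adjusted p = 0.0614 for VSEL against HSC).

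The RFC loader that opens the clamp has 5 subunits, and they went different ways in VSEL. Rfc3 was at 9.84 and 10.24 in VSEL, 7.76, 6.63 and 7.40 in HSC and 9.42, 9.56 and 9.48 in ESC. VSEL exceeded HSC by 2.78 (SE 0.34, limma adjusted p = 0.00379), and HSC fell 2.22 below ESC (log2 difference -2.22, adjusted p = 0.00366). A second probe set of Rfc3 gave 3.24 and -4.03 there, neither called (adjusted p = 0.18 and 0.11 in a fit over all probe sets). For VSEL against ESC it gave -0.79, against 0.55 in the probe set used, with no call in either. Rfc4 was at 11.06 and 11.79 in VSEL, 8.80, 9.52 and 7.75 in HSC and 10.90, 10.62 and 10.04 in ESC, a difference of 2.74 from HSC (SE 0.55, adjusted p = 0.0227), with adjusted p of 0.0609 to 0.0753 without VSEL 2+3 or HSC 1. Rfc1, the large subunit, had the opposite order, at 7.34 and 7.47 in VSEL, 8.79, 8.06 and 9.31 in HSC and 9.82, 10.07 and 9.47 in ESC. VSEL lay below every HSC and ESC library, and Rfc1 fell by 2.38 relative to ESC (SE 0.38, adjusted p = 0.0105), while the difference of -1.31 from HSC was not called (adjusted p = 0.0603). A second probe set of Rfc1 gave -2.53 against ESC and -1.47 against HSC, with adjusted p of 0.00251 and 0.0138 in a fit over all probe sets.

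Rfc5 was at 9.51 and 12.41 in VSEL, 8.92, 9.65 and 7.86 in HSC and 12.20, 12.30 and 12.38 in ESC, and it fell by 3.48 in HSC relative to ESC (limma adjusted p = 0.0286). Without HSC 1, HSC 3 or any ESC library that adjusted p was 0.0799 to 0.0863. Rfc2 was at 11.56 and 8.52 in VSEL, 9.74 to 10.14 in HSC, with 10.60 to 11.03 in ESC, so the VSEL libraries bracketed all others.

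Of the 4 genes that bind single strands or finish Okazaki fragments, none was called different between VSEL and HSC in the probe sets used. Rpa1, the large subunit of the single-strand binding protein RPA, was at 10.19 and 10.81 in VSEL, 11.39, 10.86 and 11.38 in HSC and 12.42, 12.61 and 12.43 in ESC. It was lowest in VSEL, and VSEL did not overlap with either other group. Rpa1 fell by 1.99 in VSEL (SE 0.26, limma adjusted p = 0.00532) and by 1.28 in HSC (SE 0.23, adjusted p = 0.0117) relative to ESC. At an unadjusted p under 0.05, Rfc1 and Rpa1 were the 2 genes lower in VSEL than in HSC. A second probe set of Rpa1 gave -1.12 for VSEL against HSC and -2.48 against ESC. In a fit over all probe sets, limma gave these adjusted p of 0.0233 and 0.00194.

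Rpa2, the next RPA subunit, was at 11.77 and 9.04 in VSEL, 9.43 to 9.94 in HSC, with 10.82 to 11.24 in ESC. Lig1, the ligase that seals the fragments, was at 12.43 and 8.48 in VSEL, 8.77 to 9.72 in HSC, with 10.86 to 11.67 in ESC. In both genes VSEL 1 exceeded all other libraries and VSEL 2+3 lay below them. Fen1, the flap nuclease that trims the fragments, was at 12.48 and 11.57 in VSEL, 10.82 to 11.43 in HSC, with 11.79 to 11.99 in ESC and was called in no comparison.

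Nucleotide supply was the group with the highest share of calls against HSC, 3 of 4 genes, as a description of these counts only. Tk1, the thymidine kinase of S phase cells, was at 11.84 and 12.13 in VSEL, 9.56, 8.72 and 9.39 in HSC and 11.40, 11.40 and 11.47 in ESC. VSEL was above all other libraries. Tk1 was 6.78-fold higher than in HSC (2.76, SE 0.27, limma adjusted p = 0.00154) and differed from ESC by 0.56 (adjusted p = 0.187), and HSC fell below ESC by 2.20 (log2 difference -2.20, adjusted p = 0.00142).

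Rrm1 and Rrm2 encode the large and the small subunit of ribonucleotide reductase, which makes deoxynucleotides. Rrm2 was at 12.81 and 12.50 in VSEL, 8.76, 8.46 and 9.26 in HSC and 11.72, 11.60 and 11.77 in ESC, 14.2-fold higher in VSEL than in HSC (3.83, SE 0.25, limma adjusted p = 0.000359). Without probe sets of the marked kinds its value was 0.68 (adjusted p = 0.595). Rrm1 was at 11.78 and 12.63 in VSEL, 9.38, 10.14 and 9.67 in HSC and 11.09, 10.86 and 10.69 in ESC, 5.56-fold higher than in HSC (2.47, SE 0.33, adjusted p = 0.00568) and 2.51-fold higher than in ESC (1.33, SE 0.33, adjusted p = 0.0418). In the probe sets read, VSEL was thus highest for both subunits.

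Against ESC, however, other probe sets of both genes that lay above background went the other way. A second probe set of Rrm1 had means of 7.88 in VSEL, 6.81 in HSC and 10.21 in ESC, with VSEL -2.33 from ESC (limma adjusted p = 0.0339). The other probe sets of Rrm2 had means of 8.89 and 9.58 in VSEL against 11.39 and 11.71 in ESC, with differences of -2.49 and -2.13 (adjusted p = 0.106 and 0.00308). The order of VSEL and ESC for ribonucleotide reductase therefore depends on the probe set. Relative to HSC, these 3 probe sets gave 1.07 for Rrm1 (adjusted p = 0.203) and 0.68 and 2.90 for Rrm2 (adjusted p = 0.615 and 0.000726), all higher in VSEL. The call of Rrm1 against ESC also ended without VSEL 2+3, HSC 3 or any ESC library (adjusted p of 0.0685 to 0.126). HSC fell by 1.15 below ESC for Rrm1 (adjusted p = 0.0448), with adjusted p of 0.0861 to 0.138 without HSC 1, HSC 3 or any ESC library, and by 2.87 for Rrm2 (adjusted p = 0.000358).

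Tyms, thymidylate synthase, was at 3.51 and 3.90 in VSEL, 3.43, 6.11 and 3.37 in HSC and 3.02, 3.33 and 3.73 in ESC, which is below the lower quartile of genes in every library but HSC 2. All 4 probe sets annotated to Tyms alone had a mean over the arrays between 3.38 and 3.81. Another probe set is annotated to both Tyms and its pseudogene Tyms-ps and was not tested. It read 10.16, 9.76 and 9.50 on arrays of VSEL, 8.45, 9.49 and 9.65 for HSC and 11.37, 11.10 and 11.83 for ESC, so the level of Tyms is not settled by these probe sets.

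Chaf1b, the measured subunit of CAF-1, which places histones behind the fork, was at 7.55 and 11.48 in VSEL, 7.76 to 8.13 in HSC, with 9.19 to 9.88 in ESC. VSEL 1 lay below and VSEL 2+3 above all other libraries, and no comparison called it.

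The VSEL libraries disagreed for many of these genes. They were more than 2 log2 units apart for 14 of 42 (33.3%), with VSEL 1 higher for 11 (Mcm6, Orc1, Cdc6, Gins1, Pola1, Pold2, Pole, Pole2, Rfc2, Rpa2 and Lig1) and VSEL 2+3 higher for 3 (Orc2, Rfc5 and Chaf1b). The share was 14.2% for all genes, and 30.3% for the 2166 genes brighter in VSEL than the lower quartile of the replication genes. The share in either direction is thus near that of other bright genes. Of those bright genes, VSEL 1 was higher for 343 and VSEL 2+3 for 313, a more even split than 11 and 3. The VSEL libraries lay within 1 log2 unit for 21 replication genes, among them Atad5, Cdc45, Prim1, Rfc1, Rfc3, Rrm2 and Tk1. The span of the 3 libraries exceeded 2 log2 units for 5 genes in HSC and 0 in ESC.

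Against HSC, VSEL 1 lay above all libraries for 32 of 42 genes and below all for 3, where 48.3% and 26.3% of all genes were. VSEL 2+3 lay above all for 29 and below all for 7, where 51.4% and 25.5% of all genes were. Single genes changed sides: Cdc6, Pold2, Rfc2, Rpa2 and Lig1 were above all HSC libraries in VSEL 1 and below all in VSEL 2+3, and Chaf1b was the reverse. Against ESC, VSEL 1 was above all libraries for 23 genes and below all for 14, where 43.5% and 32.1% of all genes were. VSEL 2+3 was above all for 17 and below all for 24, where 46.0% and 31.4% of all genes were.

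**Figure D4:**
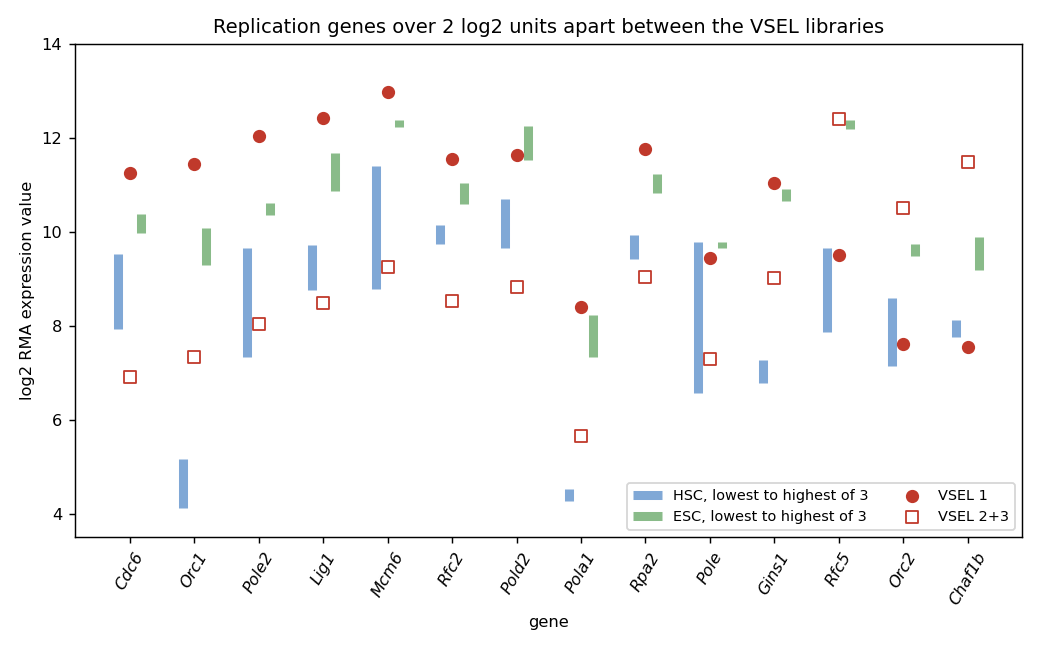
Log2 RMA values of the 14 replication genes whose VSEL libraries are more than 2 log2 units apart, with VSEL 1 as filled circles, VSEL 2+3 as open squares, and bars from the lowest to the highest of 3 libraries for HSC (blue) and ESC (green). The circle lies above the square for 11 genes and below it for Rfc5, Orc2 and Chaf1b.

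Other genes of the pathway were read from lists of 92 genes, 88 of them measured. Of these, 24 were called higher and 4 lower in VSEL than in HSC (27.3% and 4.55%, where 8.01% and 9.18% of all genes were). In VSEL against ESC, 4 were higher and 16 lower (4.55% and 18.2%, where 6.38% and 10.5% of all genes were), and in HSC against ESC, 2 were higher and 40 lower (2.27% and 45.5%, where 6.99% and 9.93% were). The smaller lists below are to be read against the same shares, and counts of 1 or 2 in them lie near what those shares give. Among 28 other fork and origin factors, 4 were higher and 2 lower in VSEL than in HSC. Dscc1, part of another alternative clamp loader, rose by 4.23 (SE 1.1, limma adjusted p = 0.0458). It was at 10.14 in VSEL 1 and 6.36 in VSEL 2+3, so the size depends on the VSEL library. Its HSC values of 4.84, 3.97 and 3.25 lie about background, so the size can also be understated. Rnaseh2b, a subunit of the nuclease that removes ribonucleotides from DNA, rose by 2.74 (SE 0.44, limma adjusted p = 0.0116), and Orc3 fell by 2.40 (SE 0.50, adjusted p = 0.0249). In VSEL against ESC, 1 was higher and 5 lower, led by Tipin, a fork protection factor, which fell by 2.70 (SE 0.23, adjusted p = 0.00155).

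Of 11 other enzymes of nucleotide supply, 2 were higher and 1 lower in VSEL than in HSC (18.2% and 9.09%, the latter at the share of all genes). Dut, which removes dUTP, rose by 2.32 (SE 0.24, limma adjusted p = 0.00199), and the mitochondrial thymidine kinase Tk2 fell by 4.88 (SE 1.2, adjusted p = 0.0375), with VSEL 1 at background. Shmt1, which supplies one-carbon units, had means of 8.67 in VSEL, 7.6 in HSC and 11.38 in ESC. Of 10 other chromatin factors of S phase, 1 was higher in VSEL than in HSC: Pclaf, a PCNA-binding protein, at 11.85 ± 0.20 against 5.63 ± 1.8 (adjusted p = 0.00926), with HSC 2 and HSC 3 near background.

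Of 13 E2F and pocket protein genes, 2 were higher and 1 lower in VSEL than in HSC. E2f2, an activator of S phase genes, was at 11.57 and 11.45 in VSEL, 9.79, 8.64 and 8.63 in HSC and 8.51, 8.42 and 8.55 in ESC. VSEL stood above both other groups, by 2.49 (SE 0.36, limma adjusted p = 0.00799) and 3.01 (SE 0.36, adjusted p = 0.0044). Tfdp1, the dimer partner of E2F proteins, had means of 12.15 (VSEL), 9.18 (HSC) and 11.04 (ESC). Rbl2, the pocket protein p130 of resting cells, was at 3.85 and 5.31 in VSEL, 10.99, 10.84 and 11.11 in HSC and 4.50, 7.87 and 4.06 in ESC. HSC lay above all others, and VSEL fell by 6.40 relative to HSC (SE 1.1, adjusted p = 0.0154), with VSEL 1 at background.

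Of 26 mitosis genes, 15 exceeded HSC in VSEL and none lower by limma, and 20 were lower in HSC than in ESC. Cenpf, a centromere protein gene, rose by 5.29 in VSEL over HSC (SE 0.65, adjusted p = 0.00396), where its values of 4.28, 4.89 and 3.68 lie about background, so the size can be understated. Bub1, a spindle checkpoint kinase gene, rose by 4.97 (SE 0.46, limma adjusted p = 0.00128). Against ESC, 2 were higher and 5 lower in VSEL, among them Aurka, a spindle pole kinase gene, which fell by 2.59 (SE 0.48, adjusted p = 0.0179).

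Markers of some other cell types also differed between VSEL and HSC, in either direction, while other marker lists had few calls or none. The marker lists are given beside these results as a description. Of 11 erythroid markers, 6 were called higher in VSEL than in HSC and none lower. Their summed level, as log2 of the sum of linear values, spanned 15.30 to 16.43 (VSEL), 12.32 to 13.33 (HSC) and 12.10 to 12.30 (ESC), and 1 of 11 lay below the lower quartile of genes in every VSEL library. Alas2, an enzyme of haem synthesis, was at 13.43 and 12.33 in VSEL, 7.24 to 9.03 in HSC, with 4.59 to 5.35 in ESC. Slc4a1, a red cell membrane protein, was at 14.18 and 13.04 in VSEL and 8.26 to 10.12 in HSC.

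Of 11 B lineage markers, 4 were higher and none lower, and their summed level spanned 14.02 to 15.57 (VSEL), 11.44 to 13.59 (HSC) and 8.62 to 9.46 (ESC). Rag1, a recombinase of developing lymphocytes, was at 10.04 ± 1.4 in VSEL and 2.96 to 2.99 in HSC. T and NK markers went the other way: 9 of 11 were lower in VSEL than in HSC, with summed levels of 10.65 to 12.37, 14.89 to 15.44 and, in ESC, 8.76 to 9.36, and 3 of 11 below the lower quartile in both VSEL libraries. Of 12 pan-leukocyte markers, 4 were lower, and the list's summed level was 13.75 in VSEL 1 and 16.05 in VSEL 2+3, against 16.49 to 16.68 in HSC, with 9.30 to 9.51 in ESC. Of 11 granulocyte and monocyte markers, 1 was lower, with summed levels of 16.28 to 17.83 (VSEL), 16.96 to 17.16 (HSC) and 8.75 to 9.26 (ESC). The sum was 16.28 in VSEL 1 and 17.83 in VSEL 2+3, on either side of HSC. Mpo of that list was at 11.55 and 14.17 in VSEL, 12.40 to 12.96 in HSC, with 4.54 to 4.82 in ESC. Of 10 mesenchymal and osteoblast markers, 5 were higher in VSEL than in HSC and none lower, led by Sparc, a matrix protein, at or above 9.6 in both VSEL libraries, 6.26, 2.73 and 4.27 in HSC and 12.41 to 12.66 in ESC. That list's summed level spanned 10.55 to 10.67 (VSEL), 8.13 to 8.52 (HSC) and 12.68 to 12.81 (ESC), and 1 of 10 lay below the lower quartile in both VSEL libraries. Of 10 HSC and progenitor markers, 1 was lower in VSEL than in HSC, with summed levels of 9.44 in VSEL 1, 11.97 in VSEL 2+3 and 10.93 to 11.25 in HSC. Of 8 megakaryocyte markers 1 was higher and 1 lower, and of 10 endothelial markers limma called none, also at an unadjusted p under 0.05. Of 12 pluripotency markers, 11 were higher in VSEL than in HSC and 11 were lower in VSEL than in ESC, with a median difference from ESC of -2.77, against -0.35 for the replication genes. The part of any of these cell types in the replication results was not tested.

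**Figure D5:**
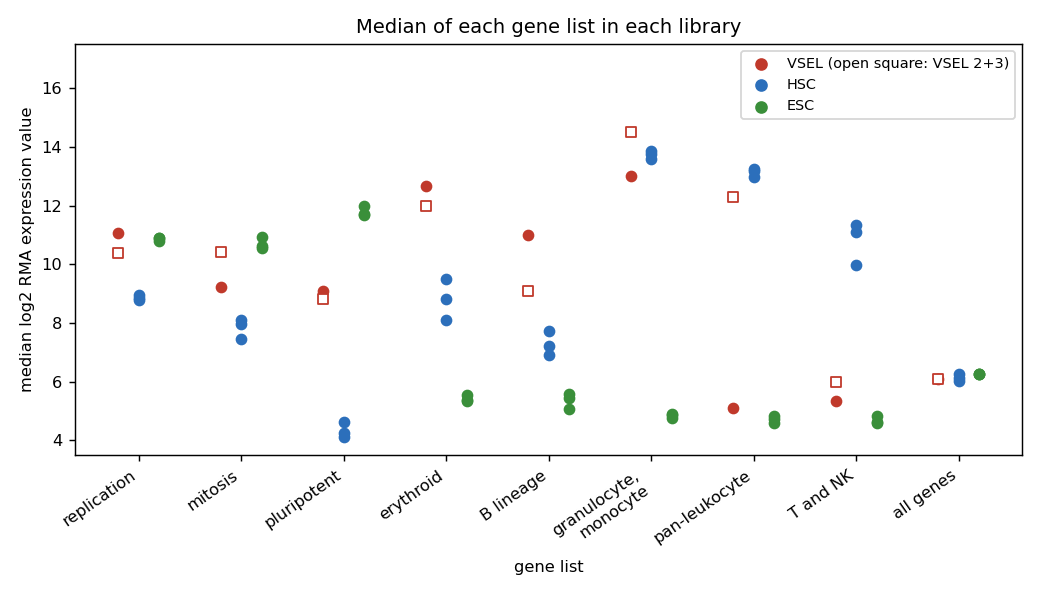
Median log2 RMA value of each gene list in each library, for VSEL (red, with VSEL 2+3 as an open square), HSC (blue) and ESC (green). Replication medians of VSEL (11.07 and 10.38) lie beside those of ESC and above HSC, the erythroid and B lineage medians are highest in VSEL, and the medians of all genes are nearly equal.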

How the data were processed

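The deposited table holds log2 expression values per probe set, which the authors made by RMA (the notes also name Partek 6.5), per the submitters' processing notes. No source used here gives the settings. Of 45101 probe sets, 64 array controls were left out, and 34945 carried 1 gene in the platform annotation. For 34741 of these the gene identifier was found in RefSeq (GRCm38.p6), and the RefSeq symbol was used, whether or not it differed. It differed for 0 of the replication genes. One probe set that names Tyms and its pseudogene was not tested.

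Values were used as deposited. All 18193 genes were fitted by lmFit and eBayes (two-sided) of limma 3.58.1, under R 4.3.3, over 8 libraries and 3 cell types, with 5 residual degrees of freedom, a prior of 1.37, and Benjamini-Hochberg adjustment within a contrast. One spread per gene was assumed for all cell types. Weights fitted per group were 0.51 for VSEL, 1.08 for HSC and 1.45 for ESC, so VSEL libraries varied most. With such weights, or with a weight per array, 10 of the 14 replication genes called above HSC in VSEL kept their call. Mcm4, Orc1, Pold1 and Rfc4 lost it. The script was tested on simulated data in which every library had the spread of HSC and ESC. That test therefore does not cover the wider spread of the VSEL libraries. The 43 genes, the lists and the tests were chosen with earlier results of these data known. All measured genes of the 43 could be named, as could up to 3 called genes with the largest difference per pathway list and contrast, and a few defining markers. Detection calls were not used, and precision is limited by how few arrays there are. Replicate numbers did not pair the samples. The RefSeq proteins were not used here.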

Additional observations from a re-analysis of the deposited data

How the results depend on the processing

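Each result was computed again under 20 alternatives. Of the 14 calls in VSEL against HSC, 7 held in every one (Mcm10, Cdc45, Prim1, Rfc3, Atad5, Rrm1 and Tk1), as did 4 of 8 in VSEL against ESC (Cdc45, Rfc1, Atad5 and Rpa1) and 13 of 20 in HSC against ESC. Directions turned in 2 cases: Pold1 in VSEL against HSC was -0.37 without probe sets whose names end in _x_at, _s_at or _a_at, and Rrm1 in VSEL against ESC was -0.27 as the mean of its probe sets. The count of replication genes called above HSC in VSEL was 8 in a fit on those groups alone, 20 without VSEL 2+3 and 9 to 17 with 1 other library left out. The count lower was 1 with 9 separate arrays, 2 as means of probe sets, 1 without the probe sets named above and 0 to 1 with 1 library left out. Against ESC, 8 were higher and 2 lower after cyclic loess, 2 were higher with array weights and 2 with group weights, and leaving out 1 library gave 2 to 6 higher and 3 to 12 lower. For the other pathway genes, VSEL against HSC gave 10, 15 and 14 higher in the fit on 2 groups, with array weights and with group weights, and 2, 1 and 1 lower. Cyclic loess gave 1 lower, and leaving out 1 library gave 2 to 5 lower, or 6 without VSEL 2+3. Against ESC, 8 were higher with 9 separate arrays, 8 after cyclic loess, 7 in the fit on 2 groups, 2 with array weights and 2 with group weights. Lower calls were 6 after cyclic loess, 7 with array weights and 6 with group weights, and leaving out 1 library gave 2 to 8 higher and 6 to 15 lower. In HSC against ESC, 0 were higher without the probe sets named above, 4 among genes above the median gene, and 1 to 3 with 1 library left out. The cause of these changes was not tested. With 1 VSEL library left, it is assumed to vary like the other groups. In VSEL against HSC, centring on ribosomal proteins moved the median difference of all genes by 0.12 and cyclic loess by -0.12. No scaling turned the sign of a called replication gene, but cyclic loess turned their median in VSEL against ESC from -0.35 to 0.33. With 9 separate arrays and the replicate block, 13 replication genes were called above HSC in VSEL, against 18 without the block; deviations of same-numbered arrays correlated between -0.0888 and 0.155, so the numbers were not taken as pairs.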
